A study of Mus musculus with 15 samples.

Results

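The respiratory chain genes were followed in mouse embryonic fibroblasts (MEFs) of 3 genotypes at Actb, the gene of beta-actin: wild type (WT), heterozygote (HET) and knockout (KO). The set was every gene whose symbol starts with Nduf, Uqcr, Atp5 or mt-, together with the Cox4 to Cox8 genes and Sdha to Sdhd. Pseudogenes named -ps, 7 in all, were left out. This gave 134 of the 46603 gene IDs in the count files. They comprise 83 nuclear subunit genes (36 of complex I, 4 of complex II, 8 of complex III, 19 of complex IV and 16 of complex V), 13 subunits encoded in mitochondrial DNA, and 10 nuclear assembly and other factors. The remainder are 2 mitochondrial ribosomal RNAs, 22 mitochondrial transfer RNAs and 4 pseudogenes whose names lack -ps. Enough reads for the test were found for 107 members: 79 nuclear subunits, 12 mitochondrially encoded subunits, the 10 factors, both ribosomal RNAs, 3 transfer RNAs and 1 pseudogene. The 27 others are mt-Nd4l, 19 transfer RNAs, Cox4i2, Cox6b2, Cox8b, Cox8c and 3 pseudogenes, and 7 of the 134 had no count in any library.

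The cells were BALB/c MEFs of 10.5-day embryos. The Actb genotypes were +/+, +/- and -/-. All groups grew to confluence on Matrigel in DMEM and from day 0 received OsteoMax-XF medium with dexamethasone and forskolin. RNA was sequenced from WT and KO at days 4 and 14 and from HET at day 14, with 3 libraries in each of the 5 groups. The labels call the cells osteoblasts, but of 8 osteoblast markers 4 reached 1 CPM in each group, and Ibsp and Dmp1 had no count in WT at day 4 or in either KO group, nor Ibsp and Sp7 in HET. How many embryos or clones stand behind a genotype is not stated, so genotype and line of cells cannot be told apart. Values are CPM, counts relative to the total of a library after scaling factors between libraries were applied. Levels of different genes are compared only after division by exon length, as CPM per kb.

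The respiratory chain passes electrons from NADH (through complex I) or succinate (through complex II) to ubiquinone, then through complex III and cytochrome c to oxygen at complex IV. Complexes I, III and IV pump protons across the inner mitochondrial membrane, and complex V, the ATP synthase, uses the returning protons to make ATP. Mitochondrial DNA encodes core membrane subunits of every complex except complex II, and the other subunits are made from nuclear genes and imported. Mitochondrial genes are read as long transcripts of both strands that are cut apart, largely at the transfer RNAs.

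A library held 19878449 to 47486736 counts. Actb followed the labels, with group means of 1181 and 2996 CPM in WT at days 4 and 14, 134 and 44.7 in KO, and 1522 in HET. HET replicate 2 of day 14 stood apart, and the WT libraries of day 14 differed among themselves. HET replicate 2 gave a chi-square, divided by its degrees of freedom, of 50.1 and 50.4 against its fellow HET libraries, which differed from each other by 2.89. Genes with exons under 1 kb took 3.37% of its counts, against 2.44% and 2.47%. The WT libraries of day 14 gave 2.67%, 3.02% and 3.38%, the last in replicate 3. Their chi-square values were 9.72 for replicates 1 and 2, 18.6 for 1 and 3 and 5.02 for 2 and 3. By that measure replicate 3 was nearer to replicate 2 than replicate 1 was. The main counts that move with HET replicate 2 or WT replicate 3 of day 14 are also given without them.

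Summed over all subunits, nuclear and mitochondrially encoded transcripts moved differently. The nuclear sum, in CPM per kb, was 4875, 4832 and 4766 in WT at day 4 and 7462, 8522 and 9361 in WT at day 14. In KO it was 6613, 6588 and 6531 at day 4 and 7683, 7672 and 7690 at day 14. HET libraries held 7248, 10580 and 7287. WT at day 4 was thus lowest, KO at day 4 next, and the day 14 groups overlapped. The mitochondrially encoded sum was 4207, 4164 and 4104 in WT at day 4 and 4017, 3518 and 4065 at day 14. At day 4 KO had 7290, 7421 and 7449, at day 14 it had 8322, 8678 and 8644, and HET had 6351, 5999 and 7232. In these sums per kb all KO libraries stood above all HET libraries, and all HET libraries above all WT libraries. The step from HET to KO at day 4 depended on the division by length. In plain CPM, HET replicate 3 held 7690, above the KO libraries of day 4 at 7273, 7375 and 7332. The step within day 14 held in plain CPM too, with 8529, 8855 and 8774 in KO and 6917, 6342 and 7690 in HET. The ratio of the mitochondrial to the nuclear sum was 0.86 ± 0.001 (SD, n = 3) in WT at day 4 and 0.46 ± 0.067 at day 14, against 1.12 ± 0.019 and 1.11 ± 0.026 in KO and 0.81 ± 0.22 in HET. The HET libraries had ratios of 0.88, 0.57 and 0.99, the lowest in replicate 2. These sums carry no test. In bulk RNA, fewer cells of a type and less RNA per cell cannot be told apart.

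**Figure D1:**
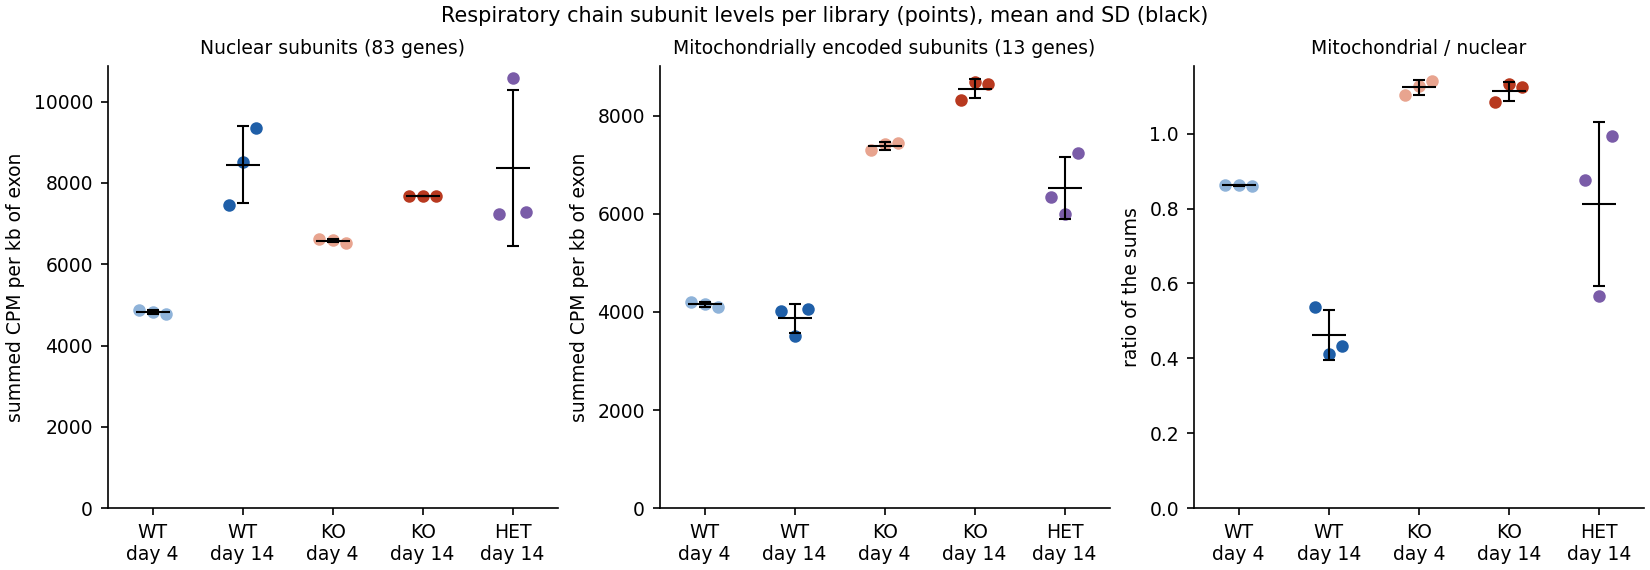
Summed level of nuclear and mitochondrially encoded subunits in CPM per kb of exon, and the ratio of the sums, for each library (points) with the group mean and SD (black) of 3 libraries. The KO libraries hold the highest mitochondrially encoded sums, 7290 to 8678, and WT at day 14 the lowest ratio.

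Every mitochondrially encoded subunit that was tested, except mt-Nd3, was higher in KO than in WT at day 14. That is 11 of 12 higher and 0 lower, where 30.9% of all tested genes were called higher and 32.2% lower. Of all tested genes, 69.1% had libraries that did not overlap between these groups, and of the 12 subunits 11 did not. The median log2 change was 1.18, against -0.02 over all tested genes. mt-Nd1, a core membrane subunit of complex I (ENSMUSG00000064341, chromosome M, 2751 to 3707 of GRCm38), had 808, 748 and 885 CPM in the WT libraries and 1951, 1980 and 2008 in KO. The groups did not overlap, and the log2 change was 1.28 ± 0.06 (SE; edgeR adjusted p = 8.25e-11). mt-Atp6, the proton channel subunit of the ATP synthase, stood at 88.2, 70.5 and 82.5 CPM in WT and 222, 235 and 236 in KO, a log2 change of 1.52 ± 0.12 (edgeR adjusted p = 3.95e-08). mt-Co1, the catalytic subunit of complex IV, stood at 1420, 1233 and 1367 CPM in WT and 2525, 2619 and 2555 in KO. Its log2 change was 0.94 ± 0.07 (edgeR adjusted p = 1.86e-08), and that of mt-Cytb, the cytochrome b of complex III, was 0.84 ± 0.06 (edgeR adjusted p = 1.50e-08). mt-Nd2, another complex I subunit, was at 1.36 ± 0.07 (edgeR adjusted p = 1.75e-10). The largest change, 1.60 ± 0.20, was that of mt-Co3 of complex IV (edgeR adjusted p = 3.78e-06), at only 1.73, 2.32 and 3.04 CPM in WT and 8.12, 5.95 and 7.39 in KO. mt-Nd6 is the subunit encoded on the other strand of mitochondrial DNA. It had the smallest called change, from 116, 130 and 149 CPM in WT to 212, 216 and 198 in KO, a log2 change of 0.67 ± 0.09 (edgeR adjusted p = 6.58e-06). mt-Nd3, at 0.373, 0.928 and 1.73 CPM in WT and 1.01, 0.686 and 2.09 in KO, overlapped and was not called (0.34 ± 0.60).

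Both mitochondrial ribosomal RNAs were higher in KO at day 14 as well. mt-Rnr2, the large ribosomal RNA, stood at 529, 636 and 685 CPM in WT and 1517, 1550 and 1510 in KO (log2 change 1.31 ± 0.13, edgeR adjusted p = 4.04e-07). mt-Rnr1, the small ribosomal RNA, stood at 181, 221 and 248 CPM in WT and 545, 547 and 543 in KO (1.33 ± 0.12, edgeR adjusted p = 1.38e-07). Among the 3 tested transfer RNAs, mt-Tp (proline) was at 3.78, 3.9 and 4.72 CPM in WT and 11.8, 12.1 and 12.2 in KO, a log2 change of 1.54 ± 0.13 (edgeR adjusted p = 7.62e-08). At day 4 it was at 3.98, 4.57 and 4.62 CPM in KO and overlapped WT. mt-Tn and mt-Tc, of asparagine and cysteine, were at 0.02 and 0.28 at day 14 and were not called. At day 4 these 2 were at 0.65 and 0.71 and were called higher in KO. In HET against WT neither ribosomal RNA and none of the 3 transfer RNAs was called. The libraries do not mark strand, and mt-Nd6 and the 3 tested transfer RNAs lie on the minus strand, so reads of the opposite strand over them cannot be told apart.

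At day 4 the same direction held in KO against WT, with 11 of 12 mitochondrially encoded subunits higher and 0 lower (35.7% of all tested genes higher, 33.8% lower) and a median of 0.80 against 0.03. Libraries of 11 of the 12 did not overlap, against 79.7% of all tested genes. mt-Nd1 stood at 512, 516 and 483 CPM in WT and 1181, 1198 and 1204 in KO (1.25 ± 0.06, edgeR adjusted p = 4.68e-11). mt-Nd6 stood at 62.6, 70.5 and 62.6 in WT and 156, 162 and 156 in KO (1.28 ± 0.09, edgeR adjusted p = 2.26e-09). The 1 not called was mt-Co3, at 0.41, whose groups did not overlap. With length and GC content in the fit 7 of the 12 were called, with a median of 0.41. In HET against WT at day 14, 10 of 12 were higher and 0 lower (28.3% and 29.9% of all tested genes), with a median of 0.69, and 10 and 0 without HET replicate 2. Libraries of 10 of the 12 did not overlap, against 54.3%. mt-Co1 stood at 2739, 2338 and 2962 CPM in HET, all above WT and overlapping KO (log2 change against WT 1.00 ± 0.07, edgeR adjusted p = 8.96e-09). mt-Nd1, at 1070, 1207 and 1192, lay between the WT and KO libraries (0.51 ± 0.06 against WT, edgeR adjusted p = 3.49e-06). The HET and KO comparisons share the WT libraries. KO was higher than HET for 8 of the 12, where 29.4% of all tested genes were higher and 30.1% lower, and 9 did not overlap, against 61.8%. Without HET replicate 2, 9 of 13 were higher in KO and 1 lower.

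**Figure D2:**
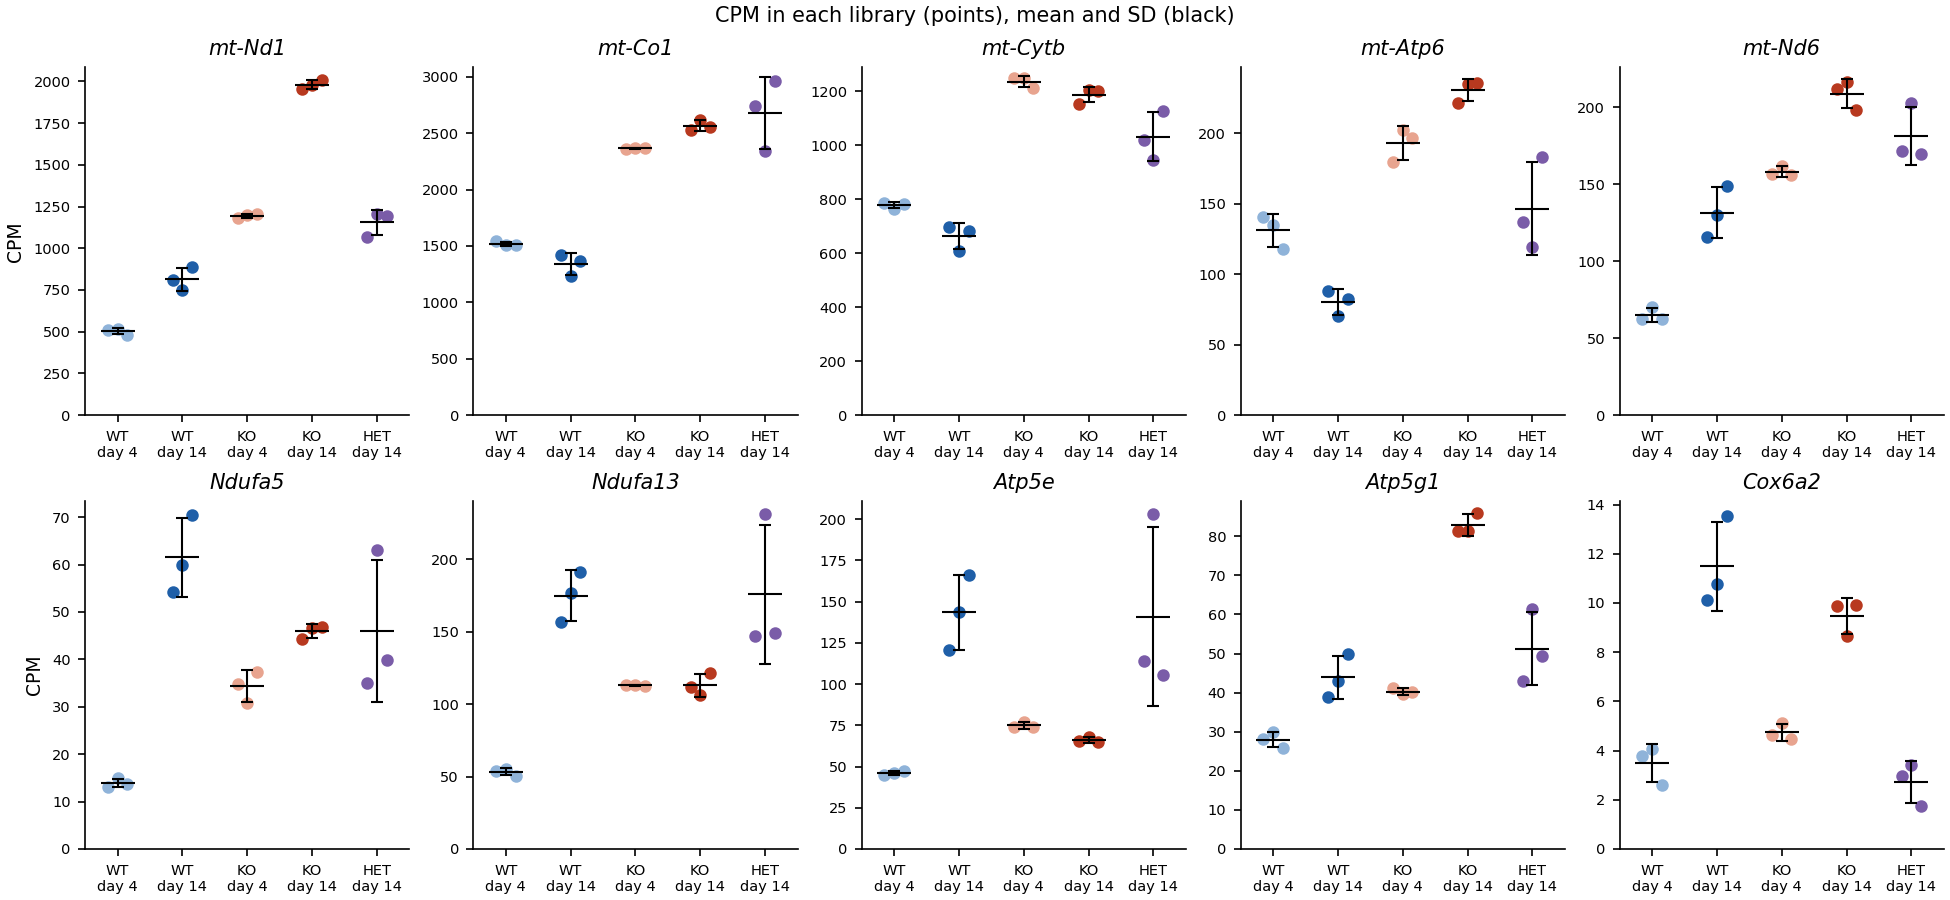
CPM of 5 mitochondrially encoded and 5 nuclear subunits in each library (points), with the mean and SD of 3 libraries (black). All KO libraries lie above the WT libraries of the same day for the 5 mitochondrially encoded genes, and HET replicate 2 is the high HET point for Ndufa5, Ndufa13 and Atp5e.

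Counts of several mitochondrially encoded genes are uncertain, because the nuclear genome holds copies of them. Pseudogenes side by side on chromosome 1 repeat much of the stretch from mt-Co1 to mt-Nd4. Of stretches of 50 bases, 100% of mt-Co2, 99.9% of mt-Co3, 99.5% of mt-Atp6, 98.8% of mt-Nd4l and 98% of mt-Nd3 also occur in another annotated gene, against 62.2% of mt-Nd4 and 51.1% of mt-Co1. Over all 15 libraries mt-Co1 had 834717 counts, but mt-Co2 had 1632, mt-Co3 1622, mt-Nd3 357 and mt-Nd4l 111. mt-Atp6, with a copy as close, had 64306. Per kb, the means in WT at day 14 were 867 CPM for mt-Co1 and 118 for mt-Atp6. Those of mt-Co2, mt-Co3, mt-Nd3 and mt-Nd4l were 4.27, 3.01, 2.90 and 0.785. Of the copies on chromosome 1, that of mt-Co1 (Gm29216) held 288 counts, that of mt-Co2 (Gm28661) 603, that of mt-Atp6 (Gm10925) 900 and that of mt-Co3 (Gm28437) 1124. The copies of mt-Nd3 (Gm28438, 3326) and mt-Nd4l (Gm10222, 388) held more counts than the genes themselves. Another copy of mt-Co1, Gm13340 on chromosome 2, held 461. The following stretches, from GENCODE M21 transcripts on GRCm38, show how far reads could distinguish the genes. Capitals mark bases that differ between a gene and its copy, and the bases are given 5′ to 3′ on the gene's strand. The reference genome is that of C57BL/6J, not BALB/c.
mt-Co1 (chrM:6381-6440, plus strand): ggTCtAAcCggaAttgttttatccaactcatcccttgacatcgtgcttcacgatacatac
Gm29216 (chr1:24616138-24616197, minus strand): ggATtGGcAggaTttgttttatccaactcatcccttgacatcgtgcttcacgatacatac
mt-Co2 (chrM:7323-7382, plus strand): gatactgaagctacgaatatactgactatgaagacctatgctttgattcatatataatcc
Gm28661 (chr1:24615196-24615255, minus strand): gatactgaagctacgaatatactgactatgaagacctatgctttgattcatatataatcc
mt-Nd3 (chrM:9459-9518, plus strand): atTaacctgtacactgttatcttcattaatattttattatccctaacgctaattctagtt
Gm28438 (chr1:24613060-24613119, minus strand): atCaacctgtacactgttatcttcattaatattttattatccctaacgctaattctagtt
The mt-Co1 pair differs at 6 of 492 aligned bases, all within the stretch shown, and the mt-Nd3 pair at 1 of 345 (T3C, counted from the gene's first base). Over 681 aligned bases the mt-Co2 pair does not differ. How the counting treated reads that fit both places is not given in the sources used here. Among the 6 tested subunits with at most 50% of stretches shared, all 6 were higher in KO at day 14 (median 1.31), 6 at day 4 and 6 in HET. The search covered annotated genes only. mt-Atp8, 1 of these 6 at 0% shared, lies between mt-Co2 and mt-Atp6, whose copies are neighbours on chromosome 1. The unannotated bases between those copies were not searched, so mt-Atp8 may be shared as well.

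**Figure D3:**
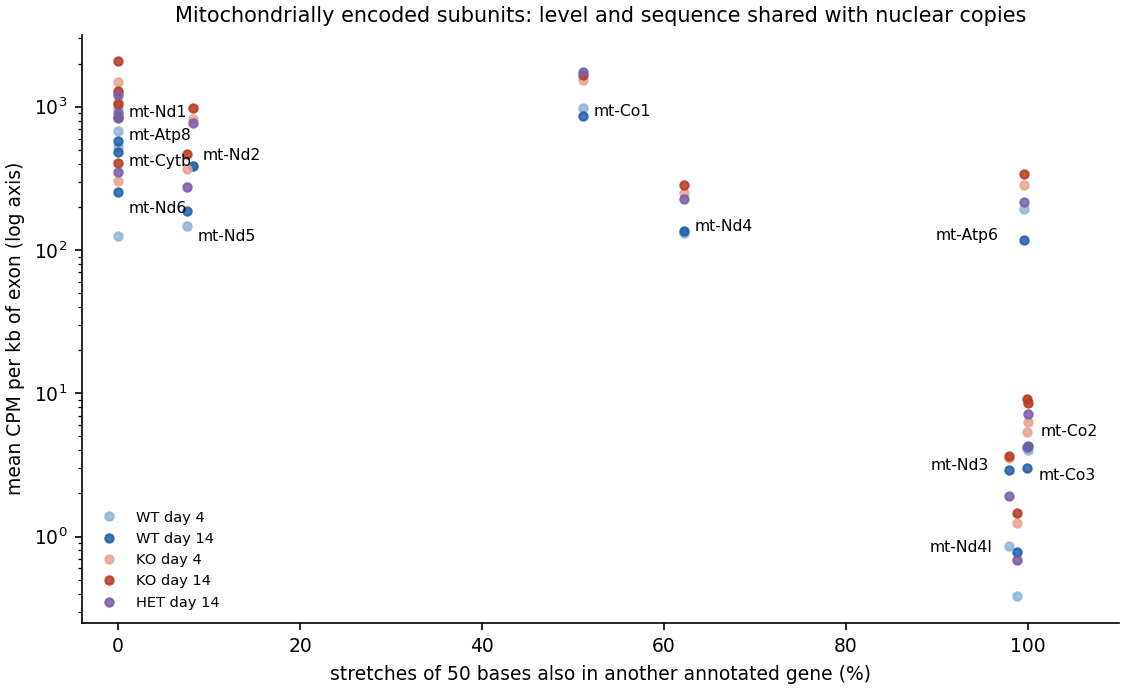
Mean level of each mitochondrially encoded subunit in CPM per kb (log axis) against the share of its 50-base stretches found in another annotated gene, 1 point per group. The 4 genes with the lowest levels (mt-Co2, mt-Co3, mt-Nd3 and mt-Nd4l) have shares of 98% to 100%, and mt-Atp6 has a similar share at a higher level.

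With time in WT the nuclear and the mitochondrial genes parted. Of 79 nuclear subunits 72 rose from day 4 to day 14 and 1 fell (39.7% of all tested genes rose and 34.9% fell), with a median log2 change of 0.84 against 0.08. Day 4 and day 14 libraries did not overlap for 72 of the 79, against 78.0% of all tested genes. Without WT replicate 3 of day 14, 63 rose and 1 fell. The share of counts from ribosomal protein genes was also larger at day 14 in WT, where replicates 2 and 3 had 4.28% and 4.73%, against at most 2.64% at day 4. In KO the highest share was 2.78%, at day 4. Their part in the result was not tested. Of the 12 mitochondrially encoded subunits 4 rose and 4 fell, with a median of 0.01. mt-Nd1, mt-Nd3, mt-Nd5 and mt-Nd6 rose, all of complex I, though the mt-Nd3 libraries overlapped, while mt-Cytb, mt-Co1, mt-Atp6 and mt-Atp8 fell. Not all of complex I rose: mt-Nd2 and mt-Nd4 were at -0.02 and 0.04 and were not called. mt-Nd6 went from 62.6, 70.5 and 62.6 CPM to 116, 130 and 149 (log2 change 1.01 ± 0.09, edgeR adjusted p = 3.38e-08). mt-Atp6 went from 140, 135 and 118 CPM to 88.2, 70.5 and 82.5 (log2 change -0.71 ± 0.12, edgeR adjusted p = 8.09e-05). mt-Atp8, a small membrane subunit of the ATP synthase, went from 199, 200 and 199 to 110, 82.8 and 102 (-1.02 ± 0.12, edgeR adjusted p = 1.04e-06). In KO over the same time 40 nuclear subunits rose and 5 fell (30.8% and 30.1% of all tested genes), 6 mitochondrially encoded subunits rose and 0 fell. Libraries did not overlap for 72 of the 79, against 74.2%. In KO, Ndufb2, an accessory subunit of complex I, fell from 19.9, 20.4 and 19.2 CPM to 9.35, 7 and 8.74 (-1.24 ± 0.11, edgeR adjusted p = 8.68e-08). Ndufa12, also of complex I, rose, from 29.6, 31.5 and 29.5 to 86.9, 90.6 and 93.8 (1.58 ± 0.10, edgeR adjusted p = 1.11e-09). Atp5a1 rose by 0.61 (edgeR adjusted p = 2.12e-08), Cox5b by 1.05 (edgeR adjusted p = 8.07e-07) and Atp5g1 by 1.04 (edgeR adjusted p = 4.85e-07).

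Of the nuclear genes of complex I, 33 of 36 rose in WT and 0 fell, with a median of 1.07. Ndufa5, an accessory subunit of the peripheral arm (ENSMUSG00000023089, chromosome 6, 24518666 to 24528013), had 13, 14.9 and 13.8 CPM at day 4 and 54.1, 59.9 and 70.5 at day 14. Its log2 change was 2.15 ± 0.17 (edgeR adjusted p = 1.15e-08). Ndufv3 was at 1.91 ± 0.11 (edgeR adjusted p = 3.38e-10). In complex II 3 of 4 rose. Sdhc, a membrane anchor, went from 64.1, 69.5 and 66 to 137, 153 and 163 (1.18 ± 0.10, edgeR adjusted p = 2.40e-08), and Sdhd, the other anchor, was not called. In complex III 6 of 8 rose. The core subunits Uqcrc1 and Uqcrc2 went opposite ways, Uqcrc1 from 108, 115 and 108 to 172, 191 and 207 (0.78 ± 0.07, edgeR adjusted p = 8.38e-08) and Uqcrc2 from 99.1, 101 and 100 to 84.1, 83.6 and 86.5 (-0.24 ± 0.06, edgeR adjusted p = 0.00243). In complex IV 14 of 15 rose. Cox6a1, the widely expressed form of an accessory subunit, stood at 150, 155 and 141 CPM and then at 376, 434 and 478 (1.53 ± 0.13, edgeR adjusted p = 4.31e-08). Cox8a went from 248, 240 and 215 to 383, 412 and 452 (0.83 ± 0.09, edgeR adjusted p = 4.15e-07). All 16 tested subunits of complex V rose, by a median of 0.54. Atp5j2 was among the highest, from 110, 110 and 115 to 267, 312 and 336 (1.45 ± 0.14, edgeR adjusted p = 1.22e-07).

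At day 4 the nuclear subunits were higher in KO than in WT, 53 of 79 (67.1%) higher and 3 lower, where 35.7% of all tested genes were higher, with a median of 0.48 against 0.03. By complex, 28 of 36 were higher in complex I, 3 of 4 in complex II, 4 of 8 in complex III, 7 of 15 in complex IV and 11 of 16 in complex V. Ndufv3, an accessory subunit of the NADH-oxidizing module, stood at 14.2, 13.9 and 14.8 CPM in WT and 41.8, 39 and 39.4 in KO (log2 change 1.49 ± 0.11, edgeR adjusted p = 6.95e-09). Ndufa5 stood at 34.9, 30.9 and 37.4 in KO (1.31 ± 0.17, edgeR adjusted p = 3.83e-06), and Ndufb11, of the membrane arm, was at 1.08 (edgeR adjusted p = 1.42e-06). Sdhc was higher by 0.56 (edgeR adjusted p = 1.02e-04). Uqcrc1 stood at 108, 115 and 108 CPM in WT and 180, 175 and 175 in KO (0.68 ± 0.07, edgeR adjusted p = 4.94e-07). In complex IV, Cox6c was higher by 0.88 (edgeR adjusted p = 2.03e-05) and Cox8a by 0.67 (edgeR adjusted p = 4.94e-06). Atp5c1, the central stalk of the ATP synthase, stood at 180, 175 and 186 CPM in WT and 266, 271 and 270 in KO (0.58 ± 0.09, edgeR adjusted p = 2.27e-05). The 3 lower subunits were all of complex I. One of these, Ndufs3, a core subunit, stood at 64.7, 65 and 58.1 CPM in WT and 46.6, 48.1 and 46.9 in KO (-0.41 ± 0.10, edgeR adjusted p = 0.00231), and Ndufa12 and Ndufab1 were at -0.34 and -0.31. Ndufab1 was no longer called with length in the fit. Ndufs3 shares 35.8% of its 50-base stretches with other genes.

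At day 14 the nuclear difference was mixed, 11 higher and 25 lower in KO, and of the lower ones 18 were in complex I. Of all tested genes 30.9% were higher and 32.2% lower, so the lower count, 31.6% of nuclear subunits, was near the background, and the higher count, 13.9%, was below it. In complex I 50% were lower. Without WT replicate 3 there were 12 higher and 15 lower nuclear subunits, with a median of -0.08, and 12 of the 36 in complex I were lower. Ndufb7, an accessory subunit, stood at 103, 124 and 140 CPM in WT and 77.6, 80.6 and 71.2 in KO (-0.68 ± 0.15, edgeR adjusted p = 0.00128). Ndufs3 stood at 105, 115 and 117 in WT and 72.3, 75.5 and 73.8 in KO (-0.60 ± 0.10, edgeR adjusted p = 1.04e-04). Ndufa13 was at -0.63 (edgeR adjusted p = 6.67e-04), but at -0.05 and not called with length and GC content in the fit. Of the higher ones, Ndufs1, the largest core subunit, was at 0.25 (edgeR adjusted p = 6.92e-04) but at -0.03 and not called in that fit. Ndufb4 was at 0.52 (edgeR adjusted p = 8.19e-04). All 50-base stretches of its pseudogene Ndufb4c occur in other genes, Ndufb4 among them, so counts of both are uncertain. Sdha, the flavoprotein of complex II, was higher by 0.21 (edgeR adjusted p = 7.23e-04), with 210, 215 and 200 CPM in WT and 243, 239 and 238 in KO. Sdhb, Sdhc and Sdhd were at 0.18, 0.08 and -0.08 and were not called. Sdhb passed the threshold in 5 of the alternatives, with length in the fit for example (0.30, adjusted p = 0.00248). Uqcrc2 was at 0.23 (edgeR adjusted p = 0.00543), a call that ended when length and GC content were both in the fit. Uqcrq, a small subunit of complex III, was lower, at -0.38 (edgeR adjusted p = 0.0276), but not called when any of 5 libraries was left out (-0.25, adjusted p = 0.149, without WT replicate 3). Cox5b, of complex IV, was at 0.45 (edgeR adjusted p = 0.00245).

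In complex V 5 of 16 subunits (31.2%) were higher and 3 (18.8%) lower at day 14, against 30.9% and 32.2% of all tested genes, so the higher count was near the background and the lower count below it. Atp5e, the small epsilon subunit of the F1 part (ENSMUSG00000016252, chromosome 2, 174461072 to 174464105), had 121, 144 and 166 CPM in the WT libraries and 65.6, 68.1 and 64.7 in KO, a log2 change of -1.12 ± 0.18 (edgeR adjusted p = 5.90e-05). Atp5j2, of the membrane part, stood at 267, 312 and 336 in WT and 159, 151 and 159 in KO (-0.96 ± 0.14, edgeR adjusted p = 1.96e-05). Atp5g1, 1 of 3 genes of the rotating c ring (ENSMUSG00000006057, chromosome 11, 96068852 to 96075670), went the other way, with 38.9, 43 and 49.9 CPM in WT and 81.3, 81.4 and 86 in KO (0.92 ± 0.11, edgeR adjusted p = 2.40e-06). Its sister genes Atp5g2 and Atp5g3 were at 0.52 (edgeR adjusted p = 1.84e-04) and 0.18 (edgeR adjusted p = 0.105), the last called in 4 alternatives (0.30, edgeR adjusted p = 3.56e-04, with length in the fit). Per kb the c ring genes differ in level, with Atp5g1 at 8.94 CPM in WT at day 14, Atp5g2 at 24.4 and Atp5g3 at 141. Atp5a1, the alpha subunit of F1, stood at 523, 555 and 554 in WT and 793, 808 and 791 in KO (0.55 ± 0.05, edgeR adjusted p = 7.97e-08). Cox4i1, the main form of the largest nuclear subunit of complex IV, was at -0.47 (edgeR adjusted p = 0.00813), and without WT replicate 3 it was not called (edgeR adjusted p = 0.0522), nor with length and GC content in the fit (-0.05, edgeR adjusted p = 0.676).

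**Figure D4:**
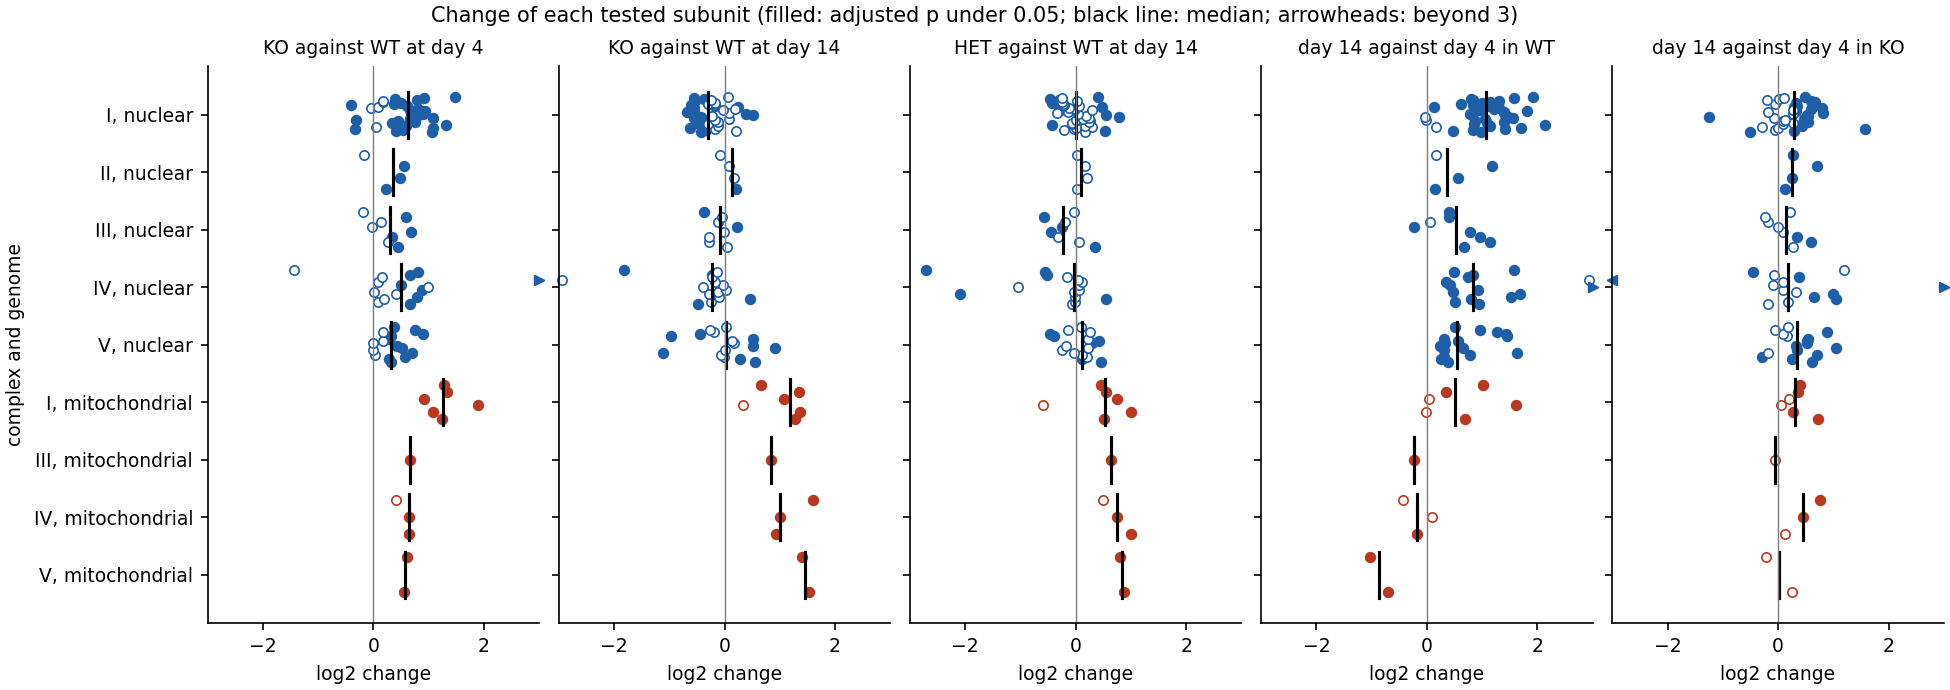
Log2 change of every tested subunit in 5 comparisons, by complex and by genome of origin (blue nuclear, red mitochondrial). Filled points passed adjusted p under 0.05, black lines are medians, and arrowheads stand for changes beyond 3. Nuclear complex I lies to the right of 0 at day 4 (median 0.64) and to its left at day 14 (median -0.29) in KO against WT, while mitochondrially encoded subunits lie to the right in both.

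The difference between KO and WT itself changed with time. The interaction of genotype and day was negative for 47 of 79 nuclear subunits and positive for 3, against 34% and 30.7% of all tested genes. Of complex I 29 of 36 were negative and 0 positive. Ndufa13, an accessory subunit also known as GRIM-19, stood at 54.2, 55.5 and 50.7 CPM in WT at day 4 and 157, 177 and 192 at day 14. In KO it was 113, 113 and 113 and then 111.7, 106 and 122. The interaction was -1.71 ± 0.19 (edgeR adjusted p = 8.67e-07), and that of Ndufa5 was -1.73 ± 0.23 (edgeR adjusted p = 7.53e-06) and of Atp5e -1.82 ± 0.25 (edgeR adjusted p = 1.18e-05). mt-Atp6 went the other way, at 0.97 ± 0.17 (edgeR adjusted p = 1.38e-04). Leaving out 1 library at a time left 40 to 51 negative nuclear subunits. Exon length went with the interaction too. For exons under 1 kb, 1 to 2 kb, 2 to 4 kb and over 4 kb, all-gene medians were -0.38, -0.39, -0.22 and 0.13. Those of nuclear subunits were -0.67, -0.60, -0.58 and -0.02. With length in the fit the all-gene medians were -0.08, -0.07, -0.09 and -0.08. Those of nuclear subunits were then -0.31, -0.29, -0.44 and -0.16.

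In HET against WT at day 14 the counts of nuclear subunits depended on the libraries used, most of all on HET replicate 2. Leaving out 1 library at a time gave 7 to 22 higher and 8 to 43 lower. With all libraries 12 of 79 were higher and 14 lower, against 28.3% and 29.9% of all tested genes. Without HET replicate 2, 9 were higher and 43 lower, and the median went from 0.01 to -0.21. Ribosomal protein genes took 4.94% of the counts of that library and 3.45% and 3.50% of the others, and their part was not tested. In KO against HET, 13 were higher and 23 lower with all libraries (29.4% and 30.1% of all tested genes), and 30 and 18 without it. Leaving out WT replicate 3 of day 14 as well gave 14 and 37 for HET against WT, and 21 and 34 for KO against WT. The shares of all tested genes come from the fit with all libraries and are not given for these smaller fits. Counts from the smaller fits therefore cannot be set against a background. Among members that were called with all libraries and kept their direction and call in every alternative run, Cox8a stood at 269, 338 and 262 CPM in HET and 383, 412 and 452 in WT (-0.52 ± 0.09, edgeR adjusted p = 1.08e-04). Uqcrc1, at 130, 158 and 133 in HET, was lower, at -0.44 ± 0.07 (edgeR adjusted p = 9.12e-05), and Ndufv1, a core subunit that binds NADH, was at -0.46 ± 0.09 (edgeR adjusted p = 4.85e-04). Higher in HET were Ndufs1, at 167, 174 and 156 CPM against 116, 124 and 118 in WT (0.47 ± 0.05, edgeR adjusted p = 1.20e-06), and Cox5b (0.54 ± 0.11, edgeR adjusted p = 6.31e-04). Against HET, KO was lower for Ndufb2 (17.2, 21.8 and 19.1 CPM in HET), at -1.21 ± 0.11 (edgeR adjusted p = 1.81e-07) and for Atp5e, at -1.09 ± 0.18 (edgeR adjusted p = 8.02e-05). Atp5a1, at 723, 800 and 717 CPM in HET, was higher than WT by 0.46 ± 0.05 (edgeR adjusted p = 7.02e-07) and did not overlap it.

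Some subunits exist in forms typical of different tissues. Cox6a2, the heart and muscle form of Cox6a1 (ENSMUSG00000030785, chromosome 7, 128205435 to 128206387), had 10.1, 10.8 and 13.6 CPM in the WT libraries of day 14, 9.9, 8.64 and 9.92 in KO and 2.97, 3.42 and 1.76 in HET. HET was lower than both, with a log2 change against WT of -2.09 ± 0.21 (edgeR adjusted p = 3.35e-07), and KO was above HET by 1.82 ± 0.21 (edgeR adjusted p = 1.72e-06). Striated muscle markers summed to 13.8 to 18.04 CPM in WT and 15.6 to 19.3 in HET, with 1 of 8 at 1 CPM or more in each group and Ckm at 0 in WT and Myh3 in HET, and their part in the result was not tested. Per kb, Cox6a1 was at a mean of 612 CPM and Cox6a2 at 16.9 in WT at day 14. Cox7a1, the muscle form of Cox7a2, rose in WT from 0, 0.104 and 0.211 to 2.01, 1.58 and 2.8 CPM (log2 change 4.54 ± 0.77, edgeR adjusted p = 7.20e-06), where its mean was 3.98 CPM per kb, against 143 for Cox7a2. In KO it rose too (3.15 ± 0.62, edgeR adjusted p = 1.66e-04). At day 4 Cox7a1 had only 9 counts over the WT libraries and 18 over those of KO. It entered the test through the day 14 groups, where it is high, so these p-values are no independent support. Cox7b2, a form known from testis, had 46, 69 and 64 counts in KO at day 4 and none in WT at day 4 or KO at day 14. With a floor of 3 counts over the group at 0, it was at least 62.8-fold higher in KO than in WT at day 4. The common forms Cox7a2, Cox6b1 and Ndufa4 were at -0.02, -0.13 and -0.14 in KO against WT at day 14 and were not called. With length and GC content in the fit Ndufa4 was lower, at -0.33 (edgeR adjusted p = 0.0018). Cox4i2, Cox6b2 and Cox8b had at most 10 counts in any library and Cox8c none. Ndufa4l2, a relative of the complex IV subunit Ndufa4 known to respond to hypoxia, was lower in HET (0.144, 0.105 and 0.0901 CPM) than in WT (0.607, 0.928 and 0.748) (-2.70 ± 0.70, edgeR adjusted p = 0.00131). In KO it was at 0.465, 0.0457 and 0.119 CPM (-1.83 ± 0.56 against WT, edgeR adjusted p = 0.00718), and with length and GC content in the fit that call was lost (adjusted p = 0.0511). Ndufa4l2 had 49 counts in WT at day 14, 15 in KO and 7 in HET, with 26 in WT and 9 in KO at day 4. It entered the test through WT at day 14, where it is high, so these p-values are no independent support.

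Of the 10 assembly and other factors, at day 4 KO exceeded WT for 7 (70%) and was lower for 2 (20%), where 35.7% of all tested genes were higher and 33.8% lower. Ndufaf4, an assembly factor of complex I, was lower, at 57.3, 62.6 and 62 CPM in WT and 36.4, 37.6 and 39.3 in KO (-0.68 ± 0.09, edgeR adjusted p = 3.49e-06). It also fell with time in WT (-0.88 ± 0.09, edgeR adjusted p = 2.05e-07). Ndufaf7, a methyltransferase acting on complex I, stood at 15.5, 16.4 and 16.3 in WT and 33.7, 38 and 35.2 in KO at day 4 (1.15 ± 0.09, edgeR adjusted p = 1.75e-08). Atp5s, known as coupling factor B, was higher too (1.40 ± 0.14, edgeR adjusted p = 1.60e-07). Ndufaf3, another assembly factor of complex I, rose in WT from 2.67, 2.57 and 3.12 to 10.5, 11.1 and 12.4 CPM (2.04 ± 0.15, edgeR adjusted p = 4.90e-09), and its interaction was -1.60 (edgeR adjusted p = 4.44e-06). At day 14, 2 of 10 were higher in KO and 4 lower, against 30.9% and 32.2% of all tested genes, near the background. Ndufaf8 was at 0.64 (edgeR adjusted p = 0.00142). Cox7a2l, which joins complexes III and IV, stood at 174, 188 and 208 CPM in WT and 143, 146 and 144 in KO (-0.40 ± 0.09, edgeR adjusted p = 0.00103).

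Other genes that serve the chain were read against the same shares of all tested genes, 30.9% higher and 32.2% lower in KO at day 14 and 35.7% and 33.8% at day 4. Of the 33 tested assembly factors of complexes II to V and cytochrome c, 13 (39.4%) were higher in KO at day 14 and 8 (24.2%) lower, with a median of 0.12, against -0.02 over all tested genes. At day 4 there were 15 higher and 4 lower. Cytochrome c itself, Cycs, was at 0.77 (edgeR adjusted p = 1.48e-05). Among 25 genes of mitochondrial gene expression, 5 (20%) were higher and 15 (60%) lower in KO at day 4. At day 14 there were 4 (16%) and 6 (24%), both below the background, and the medians were -0.34 and -0.02. Tfam, which packages mitochondrial DNA, was at -1.05 at day 4 (edgeR adjusted p = 5.21e-08) and at -0.21, not called, at day 14. Of 77 mitochondrial ribosomal protein genes 14 (18.2%) were higher and 36 (46.8%) lower at day 14 (median -0.23), and 20 and 20 at day 4. Of 14 citric acid cycle genes 9 (64.3%) were higher and 2 (14.3%) lower at day 14 (median 0.40), and 8 and 3 at day 4. Of 11 tested regulators of mitochondrial biogenesis 5 were higher and 4 lower at day 14, and 4 and 7 at day 4, with medians of 0.30 and -0.42. Ppargc1a, one of these regulators and a coactivator of mitochondrial genes, stood at means of 3.42 CPM in WT and 40.0 in KO at day 14, a log2 change of 3.55 (edgeR adjusted p = 1.42e-12). In HET its mean was 3.42 CPM, a log2 change of -0.0002 against WT that was not called. At day 14 the summed CPM of adipocyte and brown fat markers was 11.6 to 16.6 in WT, 220 to 344 in HET and 412 to 430.1 in KO. Only Fabp4 of the 6 was at 1 CPM or more, Plin1, Cidec and Ucp1 were at 0 in KO, and their part in the result was not tested. Smooth muscle markers differed between the genotypes too, with sums of 2.40 to 2.68 CPM (WT) and 2318 to 2333 (KO) at day 4, 28.3 to 30.9 (WT) and 497 to 519 (KO) at day 14. At day 14 the sum of macrophage markers was 38.3 to 41.2 CPM in KO, with Adgre1 at 0, against 8.23 to 8.82 in WT. The macrophage markers did not move together: of 3 tested, 1 was called higher in KO, 1 lower and 1 was not called. At day 4 endothelial markers summed to 11.3 to 14.4 in WT and 0.63 to 0.80 in KO, and adipocyte and brown fat markers to 15.2 to 17.6 and 76.2 to 80.5. The part of these markers in the results was not tested.

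Exon length moved with the changes. Over all tested genes the median log2 change from day 4 to day 14 in WT was 0.36 for exons under 1 kb, 0.44 for 1 to 2 kb, 0.29 for 2 to 4 kb and -0.15 for over 4 kb. In the same classes the nuclear subunits had medians of 1.22, 0.83, 0.82 and 0.32, above all genes in each. When length was a term of each library's fit, all-gene medians were 0.10, 0.08, 0.08 and 0.09, and those of the subunits 0.86, 0.47, 0.55 and 0.50. Then 59 nuclear subunits rose and 3 fell, and 2 mitochondrially encoded subunits rose and 7 fell. For KO against WT at day 14 the all-gene medians ran from -0.25 under 1 kb to 0.09 over 4 kb, and those of the subunits from -0.28 to 0.01. With length in the fit the medians under 1 kb were still -0.19 for all genes and -0.20 for the subunits, and 15 subunits were higher and 27 lower. At day 4 they were 52 and 8, with a median of 0.31, and all-gene medians by class without the length term were 0.13, 0.17, 0.07 and -0.04. Of the mitochondrially encoded subunits 11 were higher and 0 lower at day 14 with length in the fit and with length and GC content. At day 4 these fits gave 10 and 7 higher. In HET they gave 11 and 9 higher, with a median of 0.69 and 0.39.

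**Figure D5:**
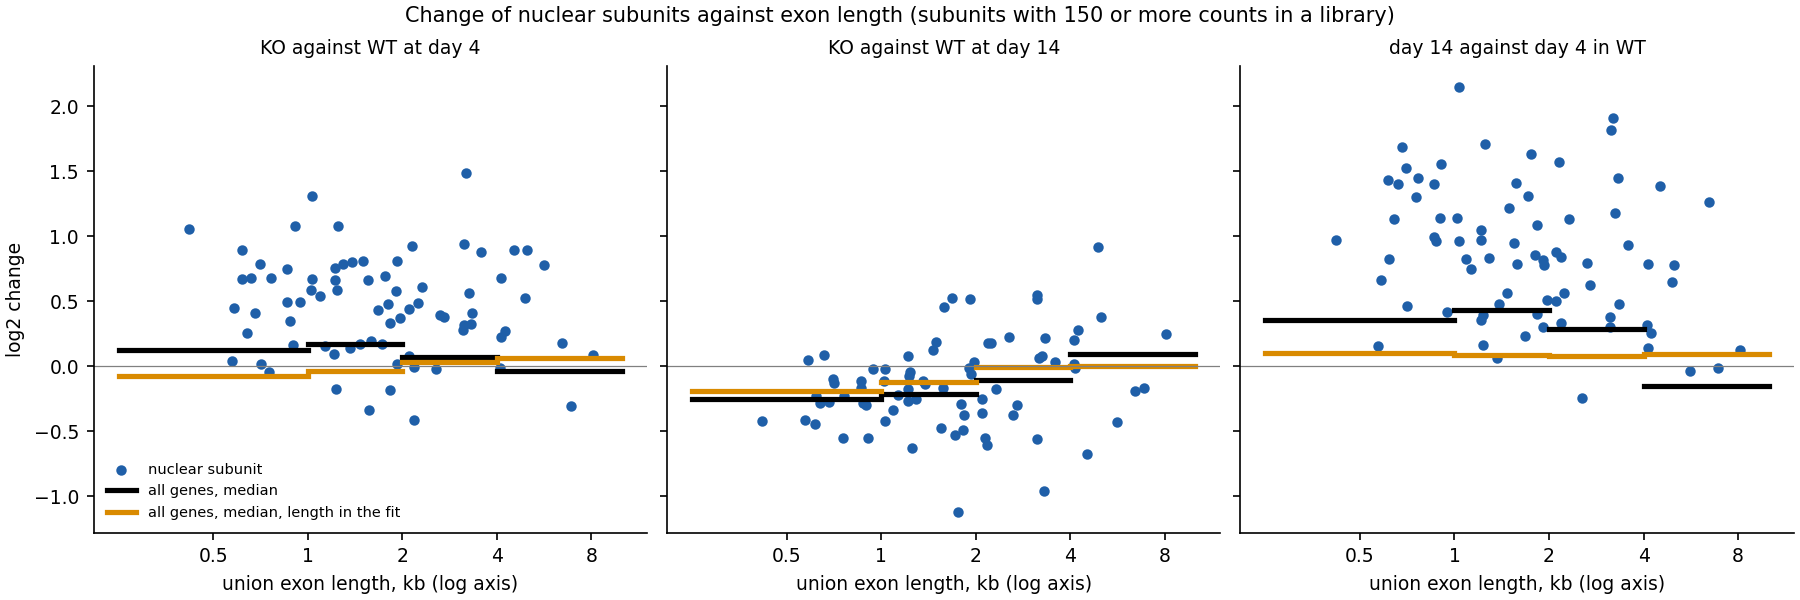
Log2 change of nuclear subunits (blue points, those with at least 150 counts in a library) against union exon length in kb (log axis), with the median of all tested genes in 4 length classes as counted (black) and with length in the fit (orange). From day 4 to day 14 in WT the black medians go from 0.36 under 1 kb to -0.15 over 4 kb, and most points lie above them.

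Promoters of nuclear members were searched for motifs of 3 factors known to bind such promoters, on both strands of RefSeq windows from 250 bases before to 50 after each start site (GRCm38.p6). Of the 83 nuclear subunits 66 matched a window. The NRF1 letters (GCGCA, any base, then GCGC) stood in 17 of them (25.8%), against 5.19% of 27025 genes, the ETS letters CCGGAAG in 16 (24.2%, against 9.93%), and the YY1 letters AAGATGGCG in 7 (10.6%, against 1.64%). The 27025 genes are all those with a window, whether or not they were tested here, so the shares are not set against expressed genes alone. The last and first letters of the ETS and YY1 motifs can overlap. The 250 bases before the start are printed for Cox6a1, which has several matches and rose with time in WT, and for Cox7a1, which rose and has none. Capitals mark NRF1 and ETS matches on either strand.
Cox6a1 (GRCm38.p6, chr5:115348959-115349208, minus strand): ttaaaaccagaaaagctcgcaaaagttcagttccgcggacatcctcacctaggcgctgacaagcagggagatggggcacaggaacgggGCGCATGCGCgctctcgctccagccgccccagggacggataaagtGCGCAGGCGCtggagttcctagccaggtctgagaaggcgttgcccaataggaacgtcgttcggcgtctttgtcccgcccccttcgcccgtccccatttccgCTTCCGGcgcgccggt
Cox7a1 (GRCm38.p6, chr7:30183921-30184170, plus strand): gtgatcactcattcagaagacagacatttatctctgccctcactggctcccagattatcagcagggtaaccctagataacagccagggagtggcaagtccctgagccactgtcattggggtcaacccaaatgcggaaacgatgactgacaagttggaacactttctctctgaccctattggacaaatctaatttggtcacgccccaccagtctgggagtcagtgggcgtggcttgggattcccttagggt
Cox6a1 holds 2 NRF1 matches and 1 ETS match. A match describes letters in this window only.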

How the data were processed

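RNA-seq libraries (TruSeq RNA v2, which does not mark strand) were made from 15 samples, 3 for each of 5 groups named by genotype and day in the labels. The authors deposited raw read counts per Ensembl gene for each sample. TopHat2 2.1.0, HTSeq, DESeq2 and the build GRCm38.p4 are named in the submitters' processing notes. The sources used here do not give the annotation that was counted, the handling of strand and of multiply aligned reads, or the other versions. GENCODE M21 (GRCm38) gave symbols, coordinates and exon lengths to 46091 of 46603 IDs. The other 512 held 0.051% of counts. Symbols and exons may differ from the release used for counting.

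All 15 libraries entered 1 edgeR 4.0.16 quasi-likelihood fit (R 4.3.3, limma 3.58.1) of group means after filterByExpr and TMM scaling. It tested 15296 genes (biological coefficient of variation 8.33%). P-values were adjusted by Benjamini-Hochberg over all of these per comparison, at a threshold of 0.05. The SE is that of the log2 change. The pipeline was tested on simulated counts. The labels do not say that replicates were separate cultures, so p-values measure only the spread between libraries. Lists and members were chosen with earlier results of these data known. Members to be named were, in each complex and comparison, up to 2 risen and 2 fallen with the smallest adjusted p, isoform sets, Sdha to Sdhd, and members that differ 2-fold without overlap. The text prints a part of these, picked after their values were seen, and a few more members. Alternatives were RLE scaling, DESeq2 1.42.0, other filters, only the groups compared, a replicate block, splines (5 degrees of freedom) for length and for length with GC content, nuclear genes alone for scaling, each replicate left out, and the longest transcript as length. Leaving out HET replicate 2 together with WT replicate 3 of day 14, and the share of 50-base stretches, were added after seeing the data.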

Additional observations from a re-analysis of the deposited data

Results flagged for a closer look

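The difference between KO and WT was not the same at day 14 as at day 4, by the interaction of genotype and day in edgeR's quasi-likelihood fit. It was positive for 3 nuclear subunits and negative for 47, and positive for 5 mitochondrially encoded subunits and negative for 1. A negative value means that KO against WT was lower at day 14 than at day 4. In complex I and its factors the log2 interaction was -1.71 for Ndufa13, -1.73 for Ndufa5, -1.60 for Ndufaf3, -1.38 for Ndufaf7, -1.63 for Ndufb11, -1.21 for Ndufb2, -1.58 for Ndufb7, -0.77 for Ndufv1 and -1.42 for Ndufv3. In complexes II and III it was -0.48 for Sdhc and -0.69 for Uqcrc1. In complex IV and its partner Cox7a2l it was -1.13 for Cox4i1, -0.88 for Cox6a1, -0.69 for Cox6a2, -0.85 for Cox6c, -0.52 for Cox7a2, -0.92 for Cox7a2l, -0.90 for Cox8a and -0.94 for Ndufa4. In complex V it was -0.59 for Atp5c1, -1.82 for Atp5e and -1.29 for Atp5j2. For Atp5s, counted above with the assembly and other factors, it was -1.26. Positive values among nuclear members were 0.23 for Atp5a1, 0.39 for Atp5g1, 0.92 for Ndufaf4 and 0.24 for Uqcrc2. Among mitochondrial genes they were 0.97 for mt-Atp6, 0.80 for mt-Atp8, 0.30 for mt-Co1, 1.19 for mt-Co3, 0.28 for mt-Nd2 and 1.62 for mt-Tp, and mt-Nd6 had -0.61. The value of Cox8a fell to -0.15 and was not called (adjusted p = 0.0841) with length and GC content in the fit.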

How the results depend on the processing

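Members were called with all 15 libraries in 1 fit. The shares of all tested genes belong to that fit and are not given for the alternatives. Across 28 counts of called subunits and 472 alternatives, 422 stayed within 1.5 times the count reported. With HET replicate 2 and WT replicate 3 of day 14 both left out (chosen after seeing the data), nuclear subunits higher and lower were 21 and 34 in KO against WT at day 14, 62 and 5 at day 4, 14 and 37 in HET against WT, 34 and 21 in KO against HET, 51 and 13 from day 4 to day 14 in KO, and 9 and 56 in the interaction, and 1 mitochondrially encoded subunit was lower in KO than in HET. With length in the fit, 8 nuclear subunits were lower in KO at day 4, 20 higher in HET against WT, 3 lower with time in WT, 10 lower with time in KO and 8 positive in the interaction. Of mitochondrially encoded ones, 2 were higher and 7 lower with time in WT and 9 positive in the interaction. With length and GC content these were 9, 22, 3, 9 and 8, with 26 nuclear subunits lower in HET, and of mitochondrially encoded ones 7 were higher in KO at day 4, 2 higher with time in WT and 0 negative in the interaction. With all genes that had a count, 5 nuclear subunits were lower in KO at day 4, 22 higher in HET, 11 lower with time in KO and 6 positive in the interaction, and of mitochondrially encoded ones 1 was lower with time in KO and 2 negative in the interaction. With only the groups compared in the fit, nuclear counts were 5 lower in KO at day 4, 6 higher and 7 lower in HET, 6 higher and 12 lower in KO against HET, 14 lower with time in KO and 7 positive in the interaction, and 2 mitochondrially encoded subunits were lower with time in KO. The cause of these moves was not tested. The fits with only the groups compared also held fewer samples.

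Leaving out 1 library at a time gave 10 to 12 higher and 15 to 30 lower nuclear subunits in KO against WT at day 14, 48 to 49 and 3 to 4 at day 4, 7 to 22 and 8 to 43 in HET against WT, 9 to 30 and 18 to 33 in KO against HET, 63 to 71 and 1 with time in WT, 32 to 35 and 5 with time in KO, and 1 to 4 and 40 to 51 in the interaction. For mitochondrially encoded subunits, 11 were higher at day 14 in each, 10 to 12 at day 4, 10 to 11 in HET, 8 to 9 in KO against HET with 0 to 1 lower, 2 to 5 higher and 3 to 5 lower with time in WT, 5 to 6 higher with time in KO, and 3 to 5 positive and 1 to 2 negative in the interaction. The libraries that moved a count by over 1.5 times were HET replicate 2 (43 lower in HET, 30 higher in KO against HET), HET replicate 1 (22 higher), HET replicate 3 (8 lower), WT replicate 3 of day 14 (15 lower in KO, 8 lower in HET) and replicate 1 (7 higher in HET), and, for counts of at most 5, WT replicate 2 of day 14, WT replicates 1 and 3 of day 4 and KO replicate 3 of day 4.

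Replicate numbers did not pair the libraries: over 30 pairs of same-numbered libraries the correlation of deviations ran from -0.0994 to 0.106. With the replicate number as a block, 12 nuclear subunits were higher and 25 lower in KO against WT at day 14, and no count moved by over 1.5 times.

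Of 96 named tests 81 kept their direction and side of the threshold in each alternative run. The reversed ones were mt-Nd3 in KO at day 14 (-0.24 without KO replicate 3 to 0.97 without WT replicate 3, and -0.05 without WT replicate 1), Sdhd (0.011 with length), Ndufs1 (-0.030 with length and GC content) and Cox7a2 (0.023 with all genes that had a count, 0.060 with length, 0.066 without both libraries, and -0.12 to 0.071 with 1 library left out). With the longest transcript as the length, the ratio of mitochondrial to nuclear levels was 0.60, 0.33, 0.79, 0.78 and 0.58 in WT at days 4 and 14, KO at days 4 and 14 and HET. Depth limits mt-Nd3, mt-Nd4l, Cox7a1, Cox7b2 and Ndufa4l2, with at most 69 counts in any library.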
